A study of Mus musculus with 4 samples.

Results

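The blood-rich inner patch is a group of 174 array spots in the heart section labelled male taken 5 days post-infarction (5 dpi). These spots lie inside the outline of the heart but are not marked as tissue in the deposited position file. They were found from positions alone, among the unmarked spots between array rows 16 and 35 and columns 60 and 86. There they form the largest group joined on the hexagonal grid. They are 174 of the 2047 spots with counts in that section, of its 623 unmarked spots, and of the 6619 spots with counts in all 4 sections. No expression value was used to choose them. The name was checked against the globin genes Hba-a1 and Hbb-bs. Hbb-bs was found in 174 of 174 patch spots, and erythroid genes made up 10.3% of the UMIs of the patch, against 1.11% over all marked spots of the section.

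Red cells carry haemoglobin, a protein made of alpha and beta globin chains around haem. Mature mammalian red cells have no nucleus, but the youngest of them, the reticulocytes, still hold messenger RNA, most of it for globins, together with a small set of other transcripts of the last stages of red cell formation. A poly(A) capture array therefore reads blood as globin RNA, alongside whatever the nucleated blood cells and the surrounding tissue release. After an infarct, blood can lie in vessels, in the ventricular cavities, in clots or in haemorrhage within the wall, and spot counts alone do not tell these places apart.

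The assay was Visium, an array that captures polyadenylated RNA from a tissue section on a grid of spots that can each hold several cells or none. Sections of 10 μm came from hearts of Collagen1a1-GFP mice aged 8 to 12 weeks, in which a collagen gene promoter drives GFP in fibroblasts. There was 1 section from a healthy control, 1 from a heart at 3 dpi and 2 from hearts at 5 dpi, labelled female and male. Infarcts were made by permanent ligation of the left anterior descending coronary artery, so the patch, and the spots of the same section it is compared with, come from 1 infarcted heart with the reporter.

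With 1 section there is no replicate, and no test was possible. Values are UMIs pooled over the spots of a group, and the intervals beside ratios and shares are exact 95% intervals, which cover counting error only. Levels are in CPM, counts per 1000000 UMIs outside the 11 erythroid genes in the files and the 13 mitochondrially encoded genes. In this way the globin load of the patch does not press down the other genes. A gene was counted as higher or lower when the levels were at least 2-fold apart, with at least 50 CPM in 1 of the 2 groups and at least 20 UMIs over both. The Y-linked genes go against the sex labels of the 5 dpi sections, with 718 UMIs in the marked spots of the section labelled female against 1 in the marked spots of the section labelled male and 0 in the patch.

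The depth of the patch was close to that of marked tissue. Its 174 spots held 1174176 UMIs, from 2695 in the lowest spot through a median of 6405 to 15965 in the highest. The median was 8747 UMIs in the 35 marked spots within 2 hexagonal steps of the patch, called the flank here, 6531 in all 1424 marked spots and 986 in the 319 outer unmarked spots that follow the outside of the heart. Patch spots had a median of 2195.5 genes, against 2997 in the flank and 2100 in all marked spots. With each spot thinned to 2695 UMIs the medians were 1223.5, 1387 and 1181.5 genes, with 0, 2 and 78 shallower spots left out. All 174 patch spots and all 35 flank spots would pass the filter the study set on spots, as would 256 of the 319 outer spots.

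The patch was mostly bordered by empty array. Of the 66 array positions that touch it, 50 have no counts in the matrix, 16 are marked spots and 0 are unmarked spots. Only 14 patch spots touch a marked spot. The others lie up to 10 steps from the nearest marked spot, with a median of 6 steps. On the map of erythroid share, the patch stands in an inner space without counts and meets the marked wall at its upper end.

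**Figure D1:**
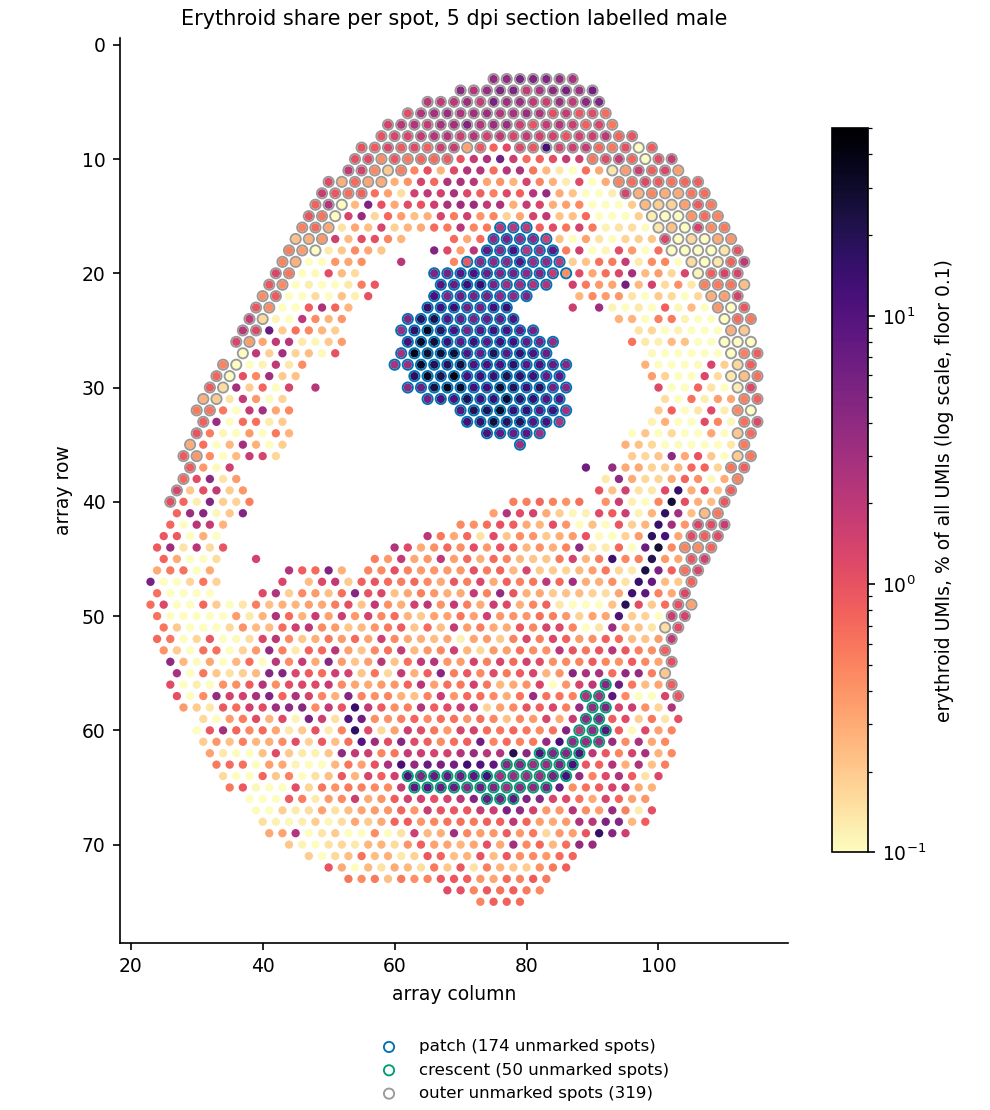
Share of erythroid UMIs in each of the 2047 spots of the 5 dpi section labelled male, drawn at its array row and column, with colour on a log scale. Blue rings mark the 174 patch spots, green rings a crescent of 50 unmarked spots and grey rings the 319 outer unmarked spots. The patch is dark over nearly its whole area, at 10.3% over its UMIs, against 1.11% over the marked spots.

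Erythroid RNA was high over the whole patch. The share of erythroid UMIs per spot ran from 0.426% through a median of 9.53% to 41.9%, with quartiles at 5.18% and 14.8%. In the flank it ran from 0.0984% through 0.557% to 2.54%, and in all marked spots from 0 through 0.419% to 27.1%. Every one of the 174 patch spots was above the median of the marked spots, and 163 were above the highest flank spot. The ranges overlap all the same, since 24 marked spots (1.69%) were above the patch median. Pooled, the share was 10.3% (10.2 to 10.4) in the patch, 0.802% (0.771 to 0.834) in the flank and 0.678% (0.659 to 0.698) in the outer unmarked spots. The patch thus held 8.50% of the spots of the section, 9.68% of its UMIs and 47.6% of its 254275 erythroid UMIs.

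The other sections have counts for marked spots only, so unmarked blood cannot be compared between hearts. Erythroid genes made up 0.514% of UMIs in the marked spots of the control and 0.319% at 3 dpi. The other 5 dpi heart, labelled female, was at 2.01%, and 1 of its spots reached 55.0%. A share as high as that of a patch spot is therefore found in single marked spots of other hearts as well. The 23 patch spots at 20% or more all lay between rows 24 and 33 and at columns up to 77, and none of them on the rim of the patch.

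The erythroid RNA was nearly all globin. Of the 120978 erythroid UMIs of the patch, 120515 came from the 4 globin genes. Hbb-bs gave 52.3% of the globin UMIs, Hba-a1 24.1%, Hba-a2 17.7% and Hbb-bt 5.95%. Hba-a1 and Hba-a2 are near-identical copies. In GENCODE M21, 419 of the 640 windows of 60 bases in the Hba-a1 transcript also occur in Hba-a2, and 371 of 569 in Hbb-bs also occur in Hbb-bt. How the reads were split within each pair is therefore uncertain, and only the sums of the alpha and of the beta genes are compared below.

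Alpha globin genes made up 41.8% (41.5 to 42.1) of globin UMIs in the patch. The share was 36.9% (35.0 to 38.8) in the flank and 36.8% (36.6 to 37.1) in all marked spots of the section. In the marked spots of the other sections it was 39.1% (38.6 to 39.7) in the control, 40.8% (40.3 to 41.4) at 3 dpi, and the heart labelled female reached 42.0% (41.8 to 42.2) at 5 dpi. The patch was thus above the marked spots of its own section by more than the counting error, and level with the other 5 dpi heart.

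Alas2, the erythroid enzyme of the opening step of haem synthesis, gave 430 UMIs in the patch and 5 in the flank. Set against globin, this was 3.57 Alas2 UMIs per 1000 globin UMIs (3.24 to 3.92) in the patch, against 1.98 (0.643 to 4.62) in the flank and 2.17 (1.90 to 2.46) in all marked spots. The interval of the flank spans that of the patch, and the interval of the marked spots does not reach it. Bpgm, a red cell enzyme gene, went the other way on this scale, at 1.004 UMIs per 1000 globin UMIs (0.833 to 1.20) in the patch, 3.56 (1.63 to 6.77) in the flank and 1.98 (1.72 to 2.27) in all marked spots. Slc4a1, the band 3 anion exchanger of the red cell membrane, had 16 UMIs in the patch and 0 in the flank. With 3 UMIs set in place of 0, it was 1.66-fold higher in the patch, a ratio that carries no interval. Hemgn and Kel had 1 UMI each in the patch, and Epb42 and Rhag had 0, which allows up to 3.06 CPM.

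Beyond the genes that were left out of the denominator, transcripts known from reticulocytes led the list of genes higher in the patch than in the flank. Of the 3345 genes that could be compared, 88 (2.63%) were at least 2-fold higher in the patch and 91 (2.72%) at least 2-fold lower, and the median of all was -0.07 on the log2 scale. The list of 15 transcripts that late red cell precursors retain had 12 members above the minimum, of which 8 were at least 2-fold higher and 0 lower, with a median of 1.58. These genes were chosen with earlier results of these data known.

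Mkrn1, a ubiquitin ligase gene, was at 297 against 48.9 CPM, 6.08-fold higher (3.62 to 11.0). Tent5c, a poly(A) polymerase gene, was at 99.8 against 19.6 CPM, 5.10-fold higher (2.26 to 14.2). Bpgm encodes bisphosphoglycerate mutase, which makes the compound that lowers the oxygen affinity of haemoglobin. Bpgm was at 123 against 29.4 CPM, 4.20-fold higher (2.14 to 9.40). Slc25a37, which encodes the mitochondrial iron importer mitoferrin 1, was 4.01-fold higher (1.76 to 11.3). Isg20, Fech, the enzyme that puts iron into haem, and Ube2l6 were at 104.9, 97.8 and 176 CPM in the patch against 29.4, 39.2 and 71.8 CPM in the flank.

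The remaining members did not reach 2-fold. Prdx2, the abundant peroxiredoxin of red cells, was at 498 CPM in the patch and 483 CPM in the flank, and it is also expressed in many other cells. Slc25a39, Blvrb and Bnip3l were at 207, 88.6 and 183 CPM against 186, 68.5 and 114 CPM. Car2, Tspo2 and Alad were too low for the comparison. Car2, carbonic anhydrase 2, had 21 UMIs in the patch and 0 in the flank, at least 2.19-fold higher.

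**Figure D2:**
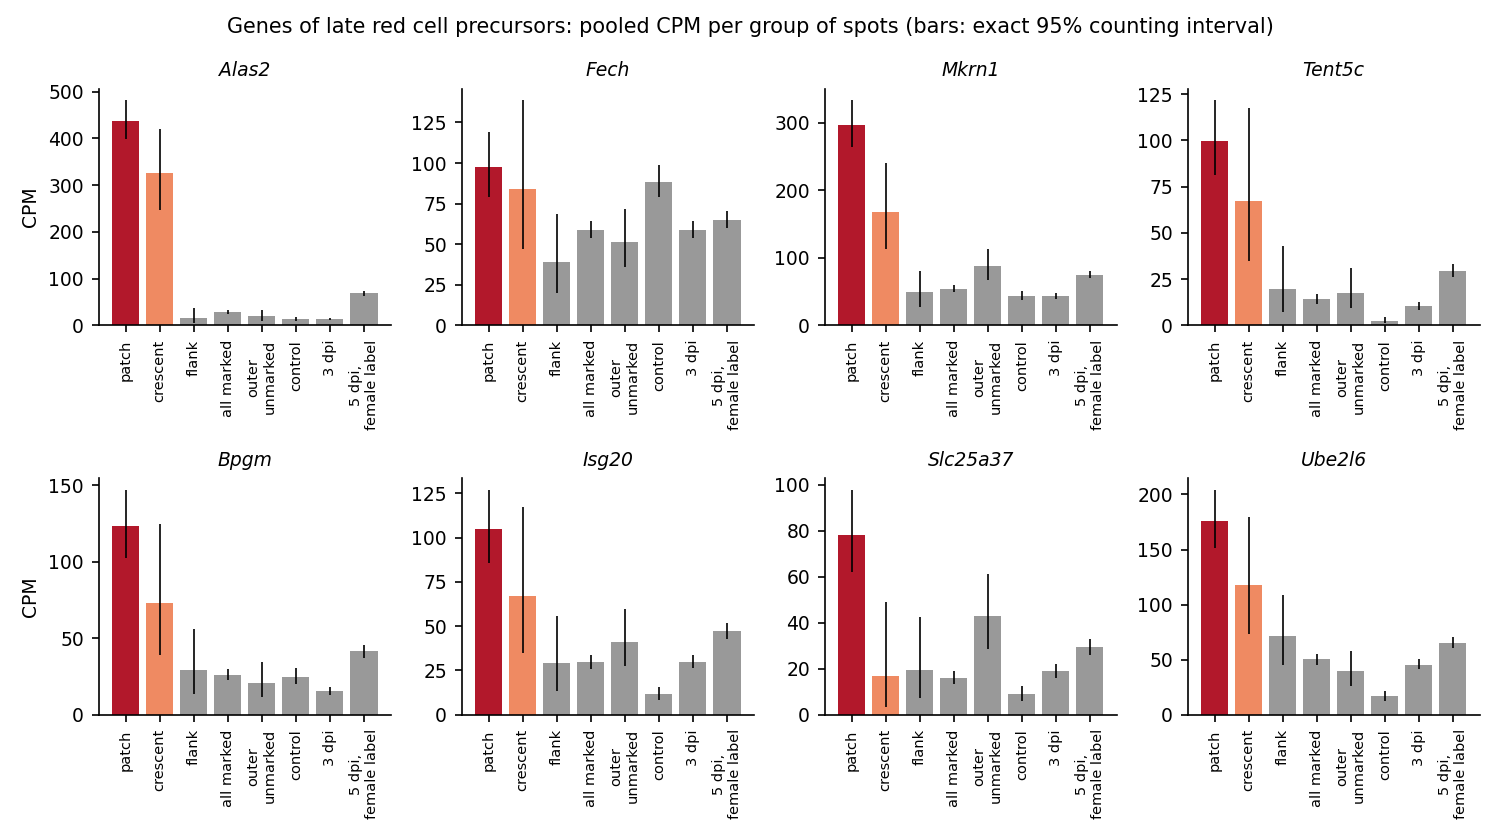
Pooled CPM of 8 genes of late red cell precursors in the patch, the crescent, the flank, all marked spots and outer unmarked spots of the 5 dpi section labelled male, and in the marked spots of the other 3 sections. Bars show the level and lines the exact 95% counting interval, with a separate axis from 0 for each gene. The patch has the highest level of each gene, 297 CPM for Mkrn1 against 53.9 CPM in all marked spots, but for Fech its interval overlaps with those of the crescent and the control.

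The other leading genes against the flank were not red cell genes as far as their known roles go. Sfrp2, a secreted modulator of Wnt signalling made by fibroblasts, was at 115 CPM in the patch and 16.3 CPM in the flank, 7.05-fold higher (2.94 to 22.1). Sfrp2 was at 83.1 CPM over all marked spots, so the contrast is with a low value in the flank, and the ratio was 2.74 when marked spots within 4 steps were taken. Acta1, the skeletal muscle actin gene that stressed cardiomyocytes take up again, was at 204 against 52.2 CPM, 3.90-fold higher (2.34 to 6.96), but at 1117 CPM over all marked spots. Bnip3, Qrich1 and Nedd9 each had 4 UMIs in the flank, and were 4.37-fold, 4.29-fold and 4.21-fold higher in the patch, with intervals that lie between 1.55 and 16.6. As a mean over spots Bnip3 was 2-fold higher, and against marked spots within 1 step it was 8.28-fold higher. The 10 genes with the lowest ratios were Zfp68, Nxpe5, Aldh7a1, Ruvbl2, Clip2, Gla, Asns, Mri1, Il2rg and Vav1, from 4.12-fold (1.94 to 8.95) lower for Zfp68 to 2.83-fold (1.67 to 4.76) lower for Vav1. Each rests on 16 to 30 UMIs in the flank, and Nxpe5 had a ratio of 0.838 against marked spots within 1 step. All 10 passed the 50 CPM minimum through the flank alone. Among the 10 highest ratios, all but Acta1 passed it through the patch alone. The intervals take no account of the choice of the most extreme ratios. Il2rg and Vav1, a cytokine receptor subunit and a signalling protein of white blood cells, were at 26.5 and 34.6 CPM in the patch and 75.1 and 97.9 CPM in the flank.

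**Figure D3:**
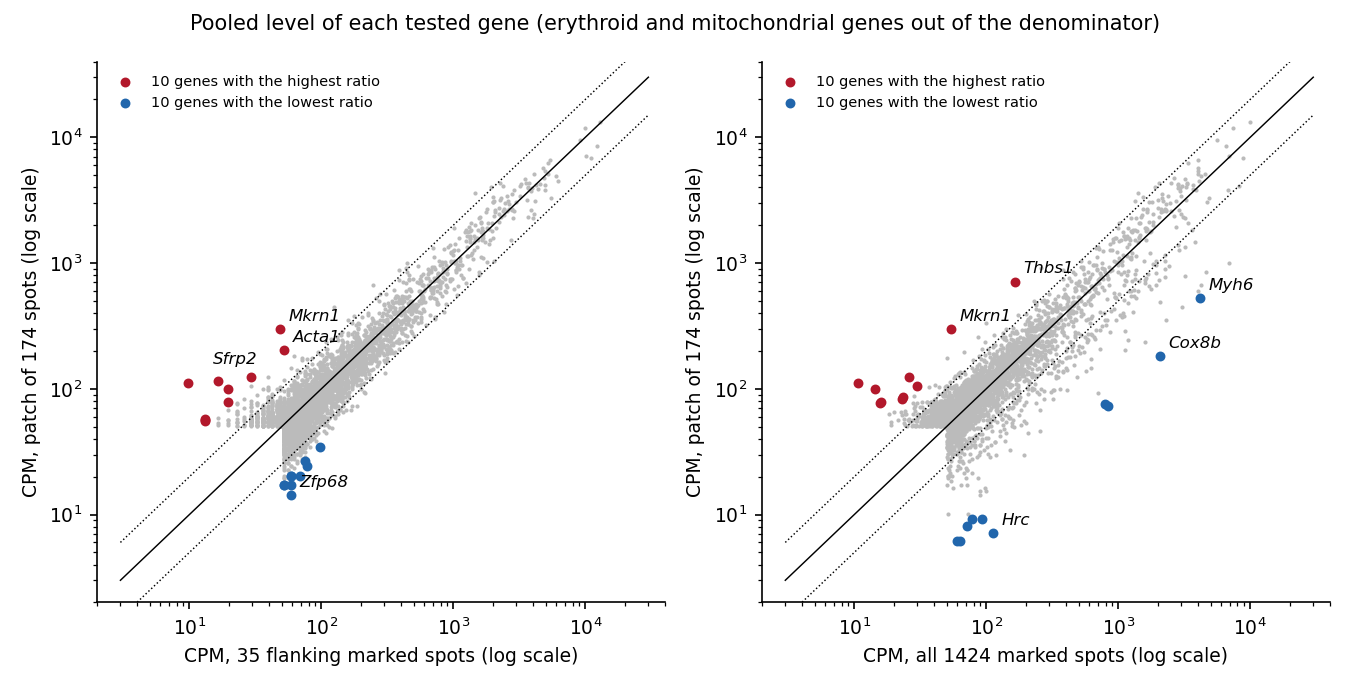
Pooled CPM of each tested gene in the patch against the 35 flank spots (left, 3345 genes) and against all 1424 marked spots (right, 3185 genes), both axes on a log scale. The solid line marks equal levels and the dotted lines a 2-fold difference. Red points are the 10 genes whose ratio is highest and blue points the 10 whose ratio is lowest, and the sparse low end on the left reflects the small number of UMIs in the flank.

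Injury fibroblast and stressed cardiomyocyte lists in the patch were near the flank, at ratios of 0.943 and 1.04. Heart muscle, mitochondrially encoded and macrophage genes differed more, as given below. Across the 3345 genes the log2 levels of the patch and the flank had a Pearson correlation of 0.93, given as a description over genes that share 2 pooled libraries of spots. Nppa, the atrial natriuretic peptide gene that stressed ventricular cardiomyocytes express, led both, at 13183 CPM in the patch and 12936 CPM in the flank. Col3a1, a collagen gene of scar, was at 5656 against 4784 CPM. Postn, the matricellular protein periostin of activated fibroblasts, was at 2996 against 2467 CPM, and Cthrc1, which marks reparative fibroblasts in the study, at 721 against 770 CPM. In the list of 18 injury fibroblast and matrix genes, 17 were above the minimum, 0 were 2-fold higher and 1 was 2-fold lower, Comp, at 68.2 against 153 CPM, which is near the 2.63% and 2.72% of all genes called higher and lower.

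The GFP transcript of the fibroblast reporter was present in 174 of 174 patch spots. EGFP was at 8528 CPM in the patch and 12247 CPM in the flank, 1.44-fold lower (1.38 to 1.49), and at 6594 CPM over all marked spots. It was at 692 CPM in the control.

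Macrophage genes were lower in the patch than in the flank. In pooled spots, fewer cells of a type and less RNA per cell cannot be told apart. The list of 12 genes of infarct macrophages that express Spp1 summed to 8137 CPM (7959 to 8317) in the patch and 12182 CPM in the flank, a ratio of 0.668 (0.642 to 0.695). Spp1, osteopontin, was at 1523 against 2744 CPM and Mmp12, macrophage elastase, at 73.3 against 186 CPM. The 12 complement and resident macrophage genes summed to 3142 against 4921 CPM, 1.57-fold lower (1.47 to 1.67), with C1qb at 1043 against 2046 CPM. Genes of haem and iron handling, by which macrophages clear spent red cells, did not stand higher. They summed to 15008 against 22481 CPM, a ratio of 0.668 (0.649 to 0.687), most of it from 2 ferritin genes. The other 12 genes summed to 1004 against 1367 CPM, a ratio of 0.735 (0.655 to 0.825). Of 8 members above the minimum, 0 were 2-fold lower, 0 were 2-fold higher and 3 were on the higher side. Hmox1, haem oxygenase 1, was at 238 against 441 CPM, and the ferritin genes Fth1 and Ftl1 were at 6879 and 7124 against 11004 and 10110 CPM.

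Genes of nucleated blood cells differed far less than the globins. Of the 16 neutrophil genes 2 were above the minimum, S100a8 and S100a9, at 85.6 and 98.8 CPM in the patch and 134 CPM each in the flank. The list summed to 287 CPM (255 to 323) against 359 CPM. Ly6g, Camp, Ngp and Ltf, which define mature neutrophils or their granules, had 0 UMIs in both groups. The 12 monocyte genes summed to 474 against 467 CPM, a ratio of 1.02 (0.840 to 1.23). The 6 B cell genes in the files summed to 22.4 CPM and the 11 T and NK cell genes to 108 CPM, against 42.4 and 134 CPM. Against all marked spots, neutrophil genes were 1.29-fold higher (1.13 to 1.46) and monocyte genes were at 474 against 365 CPM (interval of the ratio 1.17 to 1.43). Both directions turned against the marked spots low in cardiomyocyte RNA, where the lists were at 295 and 496 CPM. Over all marked spots the ratios were 1.37 (0.832 to 2.17) for B cell and 1.24 (0.998 to 1.52) for T and NK cell genes. These directions turned as well against the marked spots low in cardiomyocyte RNA, at 24.9 and 131 CPM.

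The 15 platelet and megakaryocyte genes summed to 491 CPM in the patch and 894 CPM in the flank, 1.82-fold lower (1.56 to 2.12), but 399 of the UMIs in the patch came from Pf4, platelet factor 4, which macrophages express too. Pf4 was at 406 against 848 CPM. The direction turned without Pf4, the other 14 genes being at 84.5 CPM on 83 UMIs in the patch and 45.7 CPM on 14 UMIs in the flank, a ratio of 1.85 (1.04 to 3.53). Ppbp, a platelet chemokine gene, had 20 UMIs in the patch and 3 in the flank, a ratio of 2.08 (0.617 to 10.9). Nrgn had 27 UMIs in the patch and 0 in the flank, 2.81-fold higher with 3 UMIs set in place of 0. Gp9, Gp5 and Clec1b had 5, 2 and 2 UMIs in the patch, and Tubb1 and Gp6 had 0. The 16 clotting and fibrinolysis genes summed to 2718 against 2389 CPM, 1.14-fold higher (1.05 to 1.24), a direction that was lost after thinning, with Thbs1, thrombospondin 1, at 711 against 418 CPM.

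Heart muscle genes were higher in the patch than in the flank, although both lay below the limit set for spots low in cardiomyocyte RNA, 174 of 174 and 35 of 35. The 12 cardiomyocyte genes summed to 11229 CPM (11021 to 11441) in the patch and 6272 CPM in the flank, 1.79-fold higher (1.71 to 1.88). All 12 were above the minimum, and 6 were at least 2-fold higher (2.63% of all genes were), among them Myl3, a ventricular myosin light chain, at 664 against 248 CPM and Mb, myoglobin, at 994 against 444 CPM. Mitochondrially encoded genes, which heart muscle holds in large amount, made up 6.09% of patch UMIs and 2.09% of flank UMIs. The 8 endocardial genes summed to 387 CPM (349 to 428) against 254.5 CPM, 1.52-fold higher (1.19 to 1.97), with Vwf, von Willebrand factor, at 92.7 against 55.5 CPM and Plvap at 131 against 81.6 CPM. The 10 capillary endothelial genes summed to 1507 against 1041 CPM, 1.45-fold higher (1.28 to 1.64).

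Against all marked spots of the section, the muscle contrast turned round. Of 3185 genes compared, 85 (2.67%) were at least 2-fold higher in the patch and 245 (7.69%) at least 2-fold lower, and the median of all was 0.08 on the log2 scale. In the cardiomyocyte list, 10 of 12 genes were at least 2-fold lower and the sum was 3.57-fold lower (3.50 to 3.64), at 11229 against 40097 CPM. The 10 genes with the lowest ratios were Hrc, Ckm, Cox8b, Ckmt2, Rbp7, Fitm1, Doc2g, Ank1, Tuba8 and Myh6. Ckm, muscle creatine kinase, was at 73.3 against 831 CPM and Myh6, the alpha myosin heavy chain, at 528 against 4140 CPM, 7.85-fold lower (7.19 to 8.57). The direction depended on the reference. Against the 687 marked spots low in cardiomyocyte RNA, which held 9461 CPM of the list, the patch was the higher of the pair. The capillary endothelial list, at 1507 CPM in the patch, lay below the 2570 CPM of all marked spots and close to the 1468 CPM of those low in cardiomyocyte RNA.

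The genes at the high end against all marked spots were again those of red cells, joined by a few others. In the reticulocyte list 8 of 12 genes were at least 2-fold higher, and the sum was 2120 CPM (2030 to 2213) against 1243 CPM, 1.71-fold higher (1.63 to 1.79). It was 1236 CPM in the marked spots low in cardiomyocyte RNA. Mkrn1 was 5.52-fold higher (4.75 to 6.42) and Slc25a37 4.95-fold (3.69 to 6.61). Tent5c was at 99.8 against 14.3 CPM. Pdia4, a protein folding enzyme of the endoplasmic reticulum, was at 76.4 against 15.6 CPM. Thbs1 was at 711 against 165 CPM, 4.30-fold higher (3.92 to 4.71), and at 260 CPM in the marked spots low in cardiomyocyte RNA. Mmp14, a membrane matrix metalloproteinase, and Cd24a, a surface glycoprotein found on red cells and several other cell types, were 3.67-fold (2.79 to 4.78) and 3.64-fold (2.78 to 4.72) higher.

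**Figure D4:**
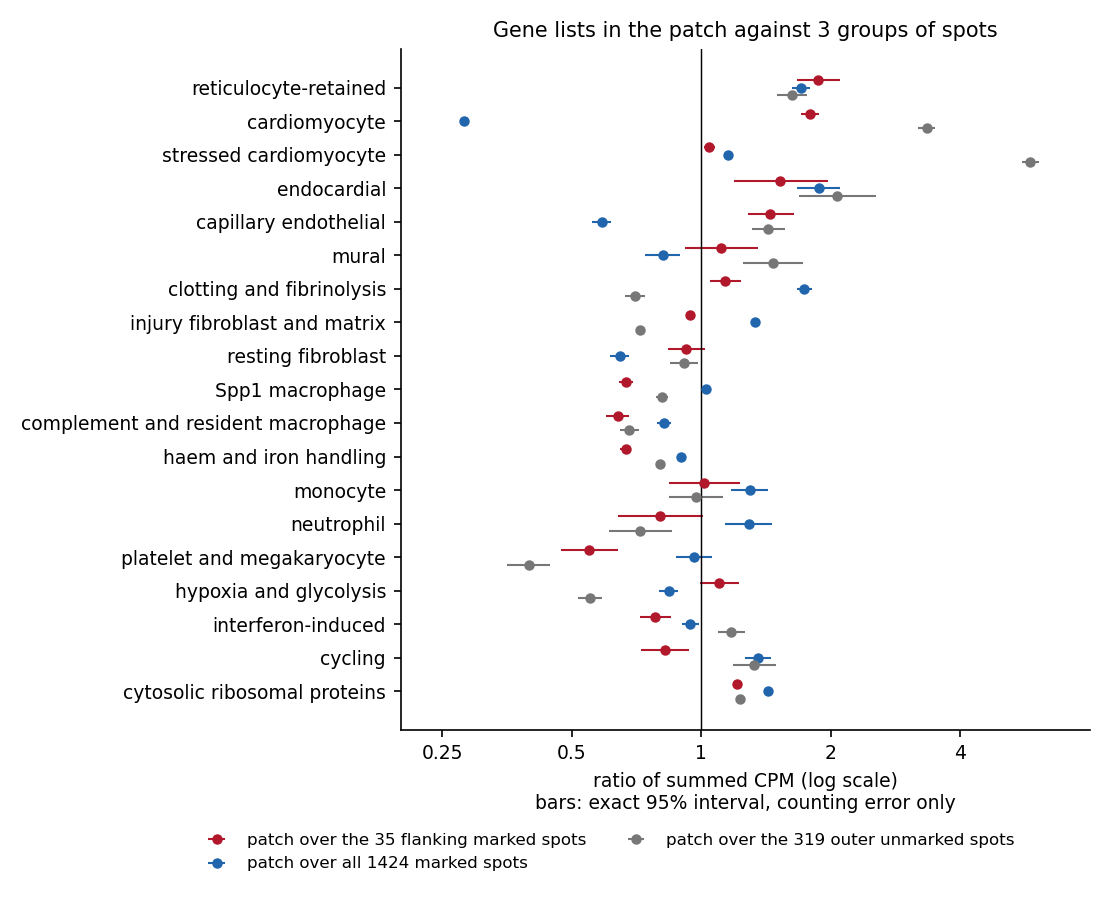
Ratio of the summed CPM of 19 gene lists in the patch over the 35 flank spots (red), over all 1424 marked spots (blue) and over the 319 outer unmarked spots (grey), on a log axis. Lines are exact 95% intervals for counting error. The reticulocyte list is above 1 in all 3 comparisons, at 1.87, 1.71 and 1.63, while the cardiomyocyte list is above 1 against the flank and the outer spots and at 0.280 against all marked spots.

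Genes for cytosolic ribosomal proteins were high in the patch. They made up 19.8% of its UMIs outside erythroid and mitochondrially encoded genes, against 16.4% in the flank and 13.9% in all marked spots. Per UMI outside erythroid and mitochondrial genes the 82 genes were 1.21-fold higher than in the flank (1.20 to 1.22) and 1.43-fold higher than in all marked spots (1.43 to 1.44), with 66 and 78 of the 79 genes above the minimum on the higher side. Of these 79 genes, 2 and 4 reached 2-fold, beside 2.63% and 2.67% of all genes.

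The outer unmarked spots share the missing tissue mark with the patch. Across the genes compared the log2 levels of both had a Pearson correlation of 0.87, against 0.90 between the patch and all marked spots, and injury fibroblast genes were abundant in both, at 29086 CPM in the patch and 40415 CPM in the outer spots. Of 3441 genes compared, 178 (5.17%) were at least 2-fold higher in the patch and 227 (6.6%) at least 2-fold lower. Among red cell genes, Bpgm was at 123 against 20.6 CPM and Tent5c at 99.8 against 17.7 CPM. Heart muscle genes were higher too, with at least 2-fold in 11 of 12 cardiomyocyte genes, and Nppa was at 13183 against 1786 CPM, 7.38-fold higher (6.96 to 7.84). The lowest ratios were those of Msln, Upk1b and Krt8, genes of the mesothelium that covers the heart, with 1, 1 and 3 UMIs in the patch and 51, 46 and 51 in the outer spots. The 7 mesothelial genes summed to 12.2 CPM (6.32 to 21.4) in the patch and 261 CPM in the outer spots, 21.3-fold lower (11.9 to 42.1), with 0 UMIs in the flank. Saa3 and Serpinb2, genes of inflammation, were at 40.7 and 15.3 against 921 and 323 CPM. The 14 hypoxia and glycolysis genes summed to 1737 against 3156 CPM, 1.82-fold lower (1.70 to 1.94).

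A crescent of 50 unmarked spots at the lower right of the map was also rich in blood, at 6.04% erythroid UMIs (5.95 to 6.13), and this comparison was added after its value was seen. The make-up of its red cell RNA overlapped with that of the patch within counting error. Alpha globin genes gave 41.1% (40.4 to 41.8) of its globin UMIs and Alas2 3.42 (2.60 to 4.43) UMIs per 1000 globin UMIs, against 41.8% and 3.57 in the patch. The rest of the profile differed. The crescent held 98181 CPM of cardiomyocyte genes and 2556 CPM of injury fibroblast genes, against 11229 and 29086 CPM in the patch, and 30.6% of its UMIs were mitochondrially encoded. Thbs1 and Spp1 had 0 UMIs there. With 3 UMIs set in place of 0, they were 42.3-fold and 90.5-fold lower than in the patch. Of 3426 genes compared, 1179 (34.4%) were at least 2-fold higher in the patch and 653 (19.1%) at least 2-fold lower, and the correlation of log2 levels was 0.54.

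Within the patch, the erythroid share rose with distance from the marked wall. In patch spots 1 to 2, 3 to 4, 5 to 6, 7 to 8 and 9 to 10 steps from the nearest marked spot, the pooled share was 4.74%, 6.96%, 9.80%, 14.6% and 17.6%. The marked spots 1 to 2 steps on the other side were at 0.802%, so in fold terms the step at the edge was larger than that between any neighbouring bins inside. Median UMIs per spot moved the other way, at 8033, 6465, 6767, 6241.5 and 4802, and the part of depth in the gradient was not tested. In numbers of erythroid UMIs per spot the medians were 312, 319.5, 582.5, 860.5 and 777, so the numbers were highest 7 to 8 steps in. The reticulocyte list went with it, from 1294 CPM nearest the wall to 3401 CPM farthest away. Mkrn1 was at 91.5 and 574 CPM in the nearest and farthest spots, and Alas2 at 141 and 818 CPM. The erythroid share also rose from the rim of the patch, taken on all sides. It was 6.14% on the rim (step 1), and 12.4%, 12.7%, 14.8% and 14.2% at steps 2 to 5 inwards. The part of each distance in the gradient was not tested.

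**Figure D5:**
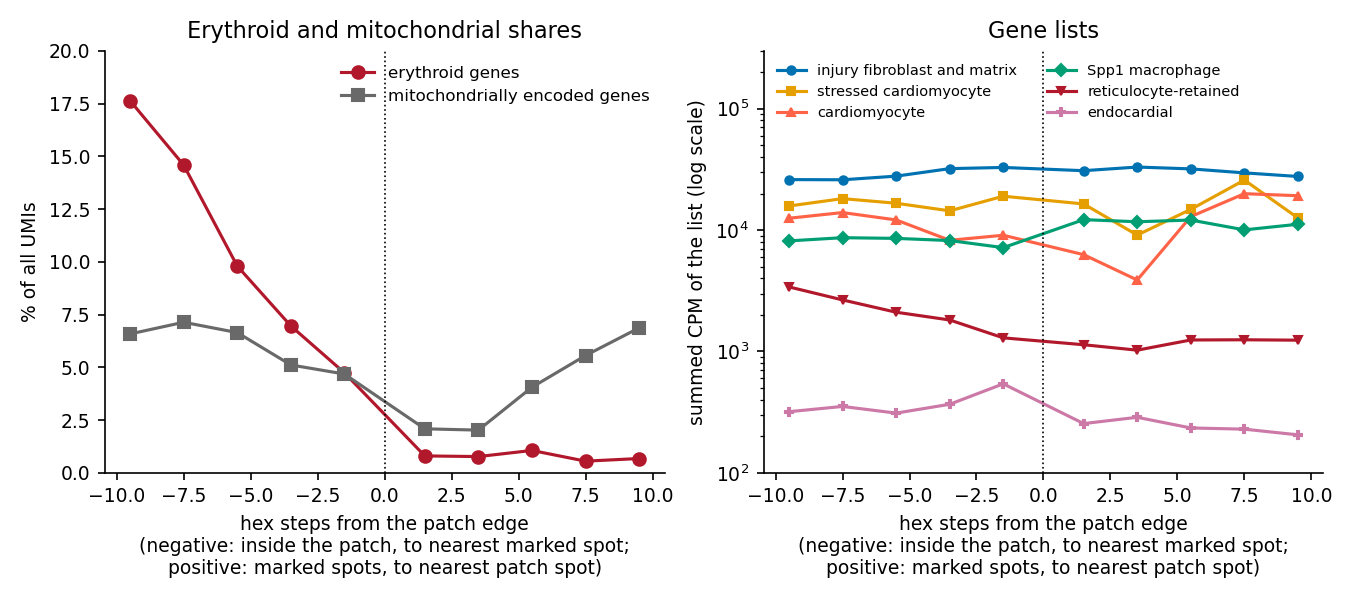
Left, erythroid and mitochondrially encoded genes as a percentage of all UMIs, in bins of 2 hexagonal steps. Right, summed CPM of 6 gene lists on a log scale. Negative steps are patch spots by their distance to the nearest marked spot, positive steps are marked spots by their distance to the nearest patch spot, and the dotted line is the patch edge. Erythroid genes go from 17.6% in the farthest patch bin to 4.74% in the nearest, and to 0.802% in the marked spots beyond the edge, while the injury fibroblast list stays between 25953 and 33037 CPM.

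Infarct and muscle lists varied less along the same path than the reticulocyte list. Injury fibroblast and matrix genes summed to 32791 CPM in patch spots nearest the wall and 26041 CPM in those farthest away. Cthrc1 stayed between 641 and 785 CPM and Postn between 2785 and 3167 CPM over the 5 bins. Nppa, at 14781 CPM nearest and 12021 CPM farthest, showed no steady course. The cardiomyocyte list was at 9063 CPM nearest and 12510 CPM farthest, with 8234 CPM 3 to 4 steps in and 13936 CPM 7 to 8 steps in. Some single genes moved more. EGFP was at 12080 CPM nearest and 6154 CPM farthest. Acta1 was at 79.1 CPM nearest, 369 CPM 7 to 8 steps in and 287 CPM farthest. Sfrp2 was highest 7 to 8 steps in, at 199 CPM, and was at 49.9 and 53.1 CPM in the nearest and farthest bins.

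Over the 174 spots, which come from 1 library and differ in depth, the log2 erythroid share had a Pearson correlation of 0.66 with the steps to the nearest marked spot and -0.38 with total UMIs. Among the 819 genes with at least 1 UMI per spot on average, the median correlation with erythroid share was -0.06. The 5 genes above 0.4 were Mkrn1 (0.60), Pabpc1, a poly(A) binding protein gene (0.58), Ftl1, ferritin light chain (0.47), and the ribosomal protein genes Rpl36 (0.47) and Rps29 (0.45). The 3 genes below -0.4 were EGFP (-0.49) and the matrix genes Bgn (-0.41) and Col1a2 (-0.41). Of these 5, Ftl1 was lower in the patch than in the flank, as given above. By list the correlations were 0.76 for reticulocyte genes, 0.54 for ribosomal protein genes, 0.50 for haem and iron handling, 0.38 for cardiomyocyte genes and -0.51 for injury fibroblast genes. They are given as a description of this section.

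The reticulocyte list ran from 459 CPM through a median of 1962 to 14110 CPM per spot, on a mean of 12.0 UMIs. Injury fibroblast genes ran from 19192 through 27319 to 51875 CPM, and no patch spot lacked them. Stressed cardiomyocyte genes ran from 5183 through 14624 to 67115 CPM. Shares of spots with a UMI depend on depth, so they were also taken at 2695 UMIs per spot. Alas2 was then found in 58.6% of patch spots (77.6% unthinned), in 6.06% of flank spots (14.3%) and in 6.02% of marked spots (10.2%). Mkrn1 was found in 47.1% of patch spots (70.7%), 12.1% of flank spots (31.4%) and 10.6% of marked spots (23.7%). Cthrc1 was found in 78.7% of patch spots (94.8%), 97.0% of flank spots (97.1%) and 44.6% of marked spots (55.7%). S100a8 was found in 17.8% of patch spots (36.2%) and 45.5% of flank spots (68.6%).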

How the data were processed

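For each of 4 Visium sections the authors deposited a matrix of raw, unscaled UMI counts, made with Space Ranger 1.3.1 per the labels and the study's methods, against an Ensembl-based mouse reference with a GFP sequence added (mm10 per the labels). The authors chose spots under tissue by hand, and the position files carry that mark. The counts cover 21885 genes and hold no genome positions. In the section labelled male, 5 marked array positions have no spot in the matrix.

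Unmarked spots were joined into groups on the hexagonal grid, which gave 29 groups in that section. The patch is the group of 174. UMIs were summed over the spots of each group and scaled to CPM over UMIs outside erythroid and mitochondrially encoded genes, with pandas 2.3.3, NumPy 2.4.6 and SciPy 1.17.1 under Python 3.11.15, and drawn with matplotlib 3.10.9. Intervals of ratios come from the exact conditional binomial distribution, and those of shares are Clopper-Pearson, both at 95%. UMIs remove PCR copies, and the intervals still cover counting error only. Spots low in cardiomyocyte RNA had a share of 12 cardiomyocyte genes under 0.5 times its 90th percentile. Correlations across spots used log2(CPM + 100). Thinning used a fixed random seed. The interval code was tested on simulated data.

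Named genes are the 10 highest and 10 lowest ratios in each of the 3 comparisons, with members of the marker lists and GFP, and a few of them are not reported here. The members and the lists were chosen with earlier results of these data known. Alternatives covered the denominator, edgeR 4.0.16 TMM factors and DESeq2 1.42.0 size factors (R 4.3.3) applied to the pooled counts without a test, spot filters, the width of the flank, thinning and the CPM minimum. Sequences are not printed, since none of the measured values turn on one. The list members Ahsp, Ighm, Ighd, Igkc, Trac and Trbc2 were not analysed here.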

Additional observations from a re-analysis of the deposited data

Results flagged for a closer look

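The section labelled male has 80 more unmarked spots, in small groups that enter no comparison above. They held signal above the level of the control section. Erythroid genes made up 1.40% of their UMIs, against 0.514% in the marked spots of the control. Postn was at 2416 CPM against 41.4 CPM, EGFP at 5177 CPM against 692 CPM, and Cthrc1 at 324 CPM against 0 UMIs in the control. These are values of pooled spots of 1 section, with no test.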

How the results depend on the processing

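For the 20 genes named against the flank and the 20 against all marked spots, and for the lists at least 1.5-fold apart from the flank or from all marked spots, the direction held under the alternatives run, with these exceptions. The platelet list against the flank turned when Pf4 was left out, to a log2 ratio of 0.89, a setting chosen after seeing the data, as was the haem and iron list without ferritin genes. Against the marked spots low in cardiomyocyte RNA the log2 ratios turned to 0.25 for the cardiomyocyte list, 0.038 for the capillary endothelial list, 0.079 for Ckmt2, 0.026 for Fitm1 and 0.65 for Tuba8. The reticulocyte list stayed 1.68-fold to 2.32-fold higher than in the flank and 1.54-fold to 1.98-fold higher than in all marked spots, and Mkrn1 5.45-fold to 7.60-fold higher than in the flank. Lists closer than that changed sign under some settings, among them the clotting, monocyte, mural, stressed cardiomyocyte and hypoxia lists against the flank, and the platelet, Spp1 macrophage, interferon, haem and iron, neutrophil, monocyte, B cell, T and NK cell, injury fibroblast, hypoxia and immediate early lists against all marked spots.

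Counts of genes moved more, and the cause was not tested beyond what each setting itself fixes. Against the flank (88 higher, 91 lower) they were 45 and 194 with erythroid genes in the denominator, 143 and 221 as means over spots, 309 and 191 after thinning, 462 and 253 at a minimum of 20 CPM, 507 and 253 with no minimum, and 167 and 203 against marked spots within 1 step. With marked spots within 4 steps 50 genes were lower. Against all marked spots (85 higher, 245 lower) the higher genes numbered 41 with erythroid genes kept, 139 with mitochondrial genes kept, 51 with TMM, 51 with DESeq2 size factors, 146 as means over spots and 139 after thinning. They were 223 and 390 at 20 CPM, 576 and 993 with no minimum, and 42 and 54 against marked spots low in cardiomyocyte RNA. Against the outer spots (178 higher), whose alternatives were chosen after seeing the data, they were 116 with erythroid genes kept and 321 after thinning.

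Of 21 lists, 3 were at least 1.5-fold higher than in the flank and 2 lower. The lower lists were 4 with erythroid or with mitochondrial genes kept, and 1 with DESeq2 factors, means over spots, 1 step or 4 steps. With 1 step 1 list was higher. Against all marked spots 3 lists were higher, and 5 as means over spots. The erythroid share was 11.0% with mitochondrial genes left out. The comparison with the crescent was also chosen after seeing the data and has no alternatives.

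The flank limits precision, since 50 CPM is worth 15.3 UMIs there. No paired analysis was possible because the comparisons lie within 1 section and the labels carry no replicate numbers.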
